A study of Homo sapiens with 6 samples.

Results

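The DNA repair genes described here are 47 genes of the main repair routes of human cells, taken as every probe set whose platform annotation names 1 of them alone. A probe set is a group of short probes on the array that reads 1 transcript. Of the 47 genes, 43 had such a probe set, 100 probe sets in all, out of 19775 genes and 41091 probe sets naming 1 gene. After a filter on low signal, 42 of these genes (88 probe sets) were tested among 13634 genes. MGMT passed the filter with none of its probe sets and is given separately. BRCA2, FANCA, FANCD2 and PMS2 were not analysed here, since no probe set in the annotation used names any of them alone, and the pair of probe sets that name PMS2 name another gene too.

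Each of 6 samples of total RNA was read on its own one-colour Affymetrix array. The parental group held 3 samples of untransfected MDA-MB-231, an established human breast cancer line. The other group held 3 samples labelled 231wCFry, described as a stable, puromycin-selected clone of MDA-MB-231 carrying the wild-type Cop rat Fry cDNA of 10791 base pairs, chosen for Fry levels near those of the mammary line MCF10A. Both lines were grown in Advanced DMEM with serum and antibiotics to 70% confluence. The model is 1 clone, no clone with an empty vector is described, the promoter driving the cDNA is not named in the labels, and the cultures differed in passage, so p-values measure only the spread between these samples, which may be technical. Values are MAS5 signals in arbitrary units, and the number of arrays, 3 per group, limits their precision.

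Cells repair DNA by routes matched to the damage. Base excision removes small damaged bases, nucleotide excision removes bulky lesions such as those made by ultraviolet light, and mismatch repair corrects copying errors. Crosslinks between strands are handled by the Fanconi anaemia pathway, and broken chromosomes are either rejoined directly by end joining or copied from a sister chromatid by homologous recombination, under kinases that sense the damage and halt the cell cycle. In breast tissue, inherited loss of homologous recombination genes such as BRCA1, PALB2 and BARD1 is known for raising cancer risk.

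The samples labelled 231wCFry, called clone-labelled below, went against their label in their cell type markers. Of 9 breast epithelial markers 1 rose and 6 fell in them, with summed signals of 8646.5 to 9277.6 in parental and 1726.2 to 1888.3 in clone-labelled samples, where KRT19 lay at or below the bacterial control level. Of 11 melanocyte and neural crest markers 9 had a probe set and 8 were tested, of which 7 rose and none fell, with sums of 393.0 to 480.6 and 5496.0 to 5994.1. The transcription factor SOX10, S100B, MLANA and TYRP1 lay at or below the bacterial control level on every parental array, while SOX10 read 1395 ± 22.3 (SD, n = 3) on the clone-labelled arrays. Of 6 mesenchymal markers 3 rose and 2 fell, with sums of 13249.4 to 14685.9 and 13774.6 to 16577.4 that hide opposite changes, among them a rise of CDH2 (4.97) and a fall of ZEB1 (-1.73). Sums of 5 fibroblast markers were 265.8 to 316.9 and 46.4 to 54.9, and those of 4 leukocyte markers 26.3 to 33.9 and 19.0 to 28.8. Of 24 proliferation genes 4 rose and 14 fell (75% called, against 67.1% of all genes). Their sums were 28907.0 to 29453.1 and 22953.9 to 25227.3. GAPDH, whose 3'-to-5' signal ratio reflects RNA integrity, had ratios of 1.36 to 1.39 in parental and 1.24 to 1.33 in clone-labelled samples. The part of cell line identity, of proliferation and of RNA quality in the changes of repair genes was not tested. In such bulk samples, fewer cells expressing a gene and less of its RNA per cell cannot be told apart.

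Repair genes changed in both directions, and mostly by modest amounts. Of the 42 genes, 18 rose and 12 fell in the clone-labelled samples (limma, Benjamini-Hochberg adjusted p below 0.05), so that 30 were called (71.4%), where 67.1% of all 13634 genes were called. The share called higher over all genes was 34.1% and that called lower 33.1%. Each gene is represented by its tested probe set of highest mean signal, and changes are on the scale of log2(signal + 16), clone-labelled minus parental. The groups did not overlap in 29 of the 42 genes (69%), against 73.1% of all genes. A called change of at least 0.5 was seen in 12 repair genes (28.6%), against 48.1% of all genes. At a change of at least 1 only ATR, XPA and FANCG remained (7.14%), against 23.2% of all genes. The median change was 0.12 for the repair genes and 0.0083 for all genes, and the median absolute change was 0.38 and 0.48. Over probe sets, 31 of the 88 rose and 22 fell, 60.2% called, where 62.6% of all 32784 tested probe sets were called, 30.3% higher and 32.3% lower. Groups did not overlap in 56 of the 88 (63.6%), against 67.4% of all probe sets. Called changes of at least 0.5 were seen in 25% of the 88 and 43.5% of all, and of at least 1 in 6.82% and 18.8%. The share of repair genes called at any size was therefore near the background, while the shares past 0.5 and 1 were lower than those of all genes, which is given as a description without a test.

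**Figure D1:**
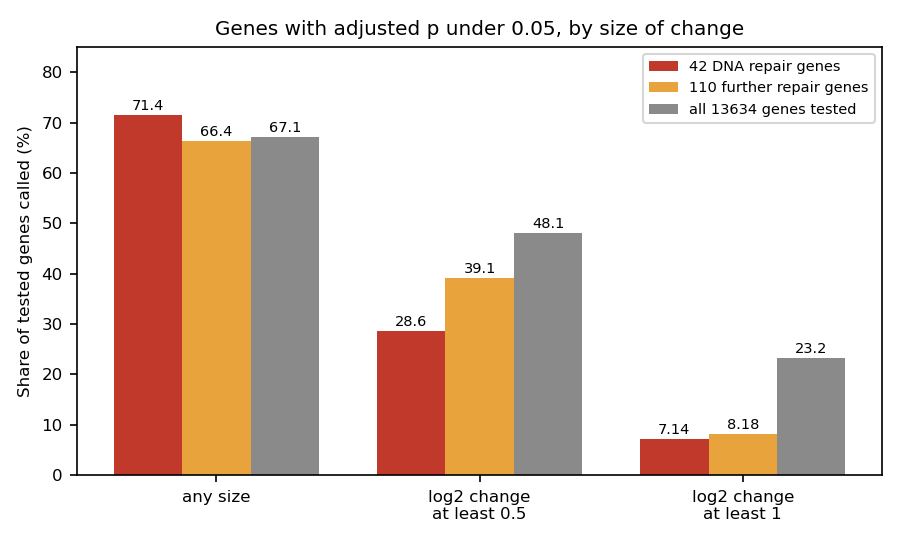
Share of tested genes with an adjusted p under 0.05 (vertical axis, percent), at any size of change and at an absolute log2 change of at least 0.5 or 1, for the 42 DNA repair genes, 110 further repair genes and all 13634 genes tested. The 3 bars are close at any size (71.4%, 66.4% and 67.1%) and lie at 7.14%, 8.18% and 23.2% for changes of at least 1.

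By route, end joining was the one in which all tested genes of the 47 rose (4 of 4). The 5 further end-joining genes given below split, with 2 higher and 2 lower. All 6 nucleotide excision genes were called, 3 in each direction. Homologous recombination had 2 genes higher and 3 lower of 9, break sensing and checkpoint signalling 3 higher and 3 lower of 7, the Fanconi anaemia pathway 3 higher and 2 lower of 6, mismatch repair 1 higher and 1 lower of 3, and base excision 2 higher and none lower of 7. The counts take each gene by its brightest probe set, and in base excision a pair of other bright probe sets of LIG3 fell, by 0.56 and 0.64. With 3 to 9 genes in a route these counts are descriptions, read against the 67.1% called over all genes, 34.1% higher and 33.1% lower.

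**Figure D2:**
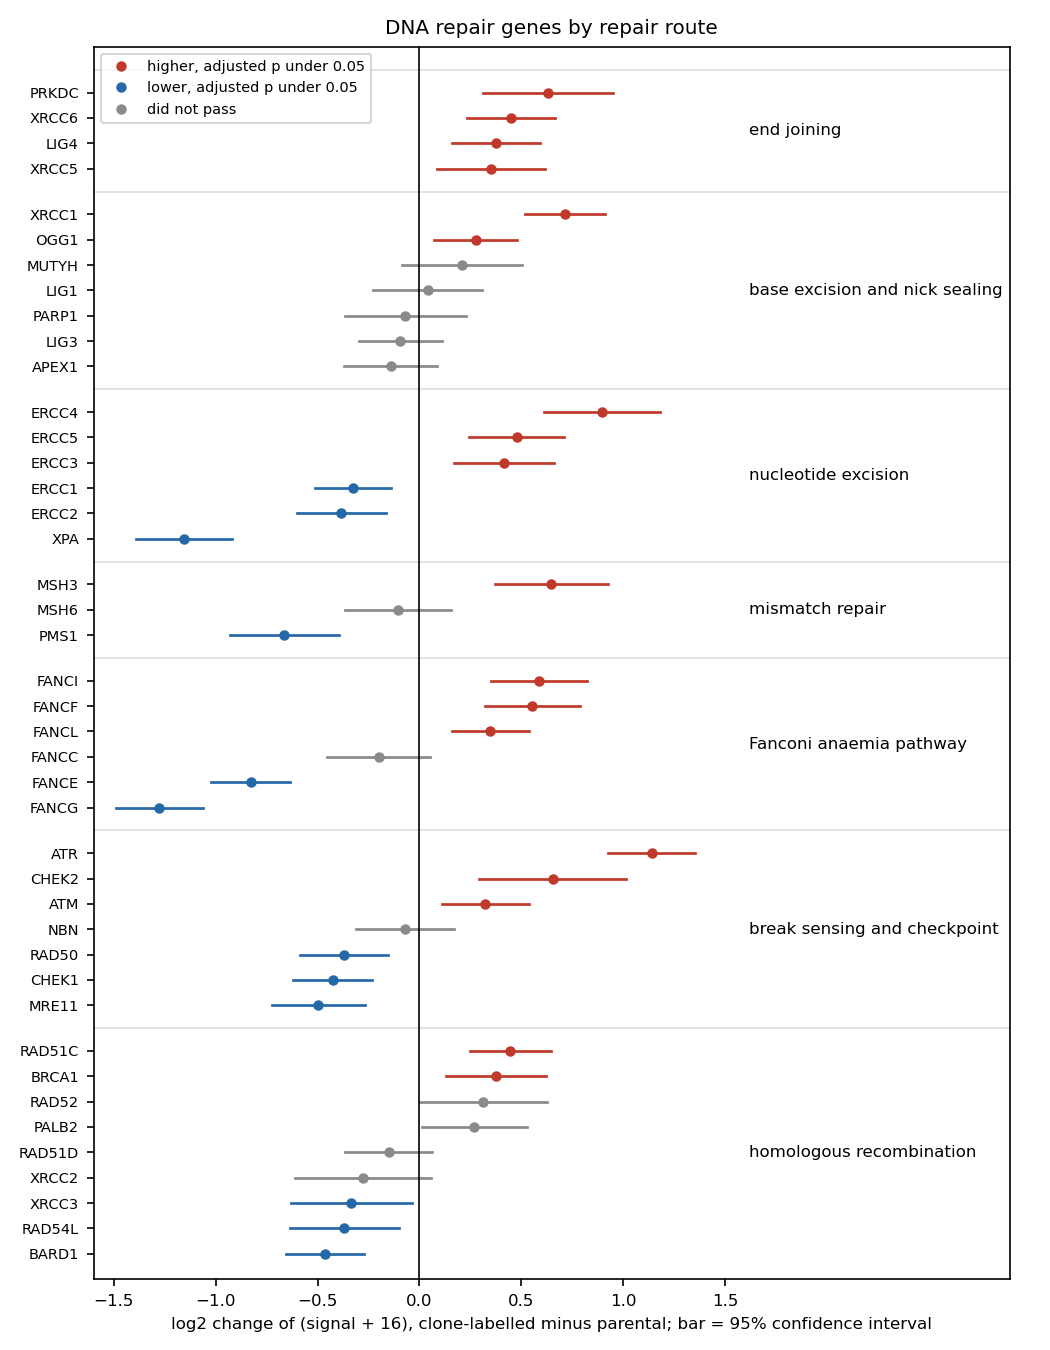
Change of each of the 42 tested repair genes, grouped by repair route, as the log2 change of (signal + 16) between clone-labelled and parental arrays (horizontal axis), with its 95% confidence interval from limma as a bar (3 arrays per group). Genes that rose are red, genes that fell blue and genes that did not pass grey, and changes run from -1.28 (FANCG) to 1.14 (ATR).

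The 6 repair genes with the largest called changes were FANCG, XPA and FANCE, which were lower, and ATR, ERCC4 and XRCC1, which were higher. The 250 bases before the annotated start of each are shown, 5′ to 3′ on the gene's strand (RefSeq, GRCh38.p14), because these are the stretches where promoter elements of genes that moved oppositely can be set side by side. Capitals mark every match, on either strand, to a CCAAT box (CCAAT), a GC box (GGGCGG), an ETS-type word (CCGGAAG), an E2F-type word (TTCCCGC, its variant TTGGCGC, the variant TTCGCGC and the variant TTGCCGC) or a CRE-type word (TGACGTC), and adjoining matches run together.
FANCG (chr9:35079943-35080192, minus strand): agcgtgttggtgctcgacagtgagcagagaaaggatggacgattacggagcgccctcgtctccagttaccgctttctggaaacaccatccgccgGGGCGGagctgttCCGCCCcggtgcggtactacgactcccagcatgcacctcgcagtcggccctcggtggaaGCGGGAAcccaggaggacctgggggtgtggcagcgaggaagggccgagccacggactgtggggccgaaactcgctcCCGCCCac
XPA (chr9:97697341-97697590, minus strand): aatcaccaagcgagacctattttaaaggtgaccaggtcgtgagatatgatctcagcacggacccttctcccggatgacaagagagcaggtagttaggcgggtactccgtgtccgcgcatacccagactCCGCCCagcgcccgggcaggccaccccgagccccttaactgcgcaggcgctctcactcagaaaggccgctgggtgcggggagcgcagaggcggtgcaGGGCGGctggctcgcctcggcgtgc
ATR (chr3:142578734-142578983, minus strand): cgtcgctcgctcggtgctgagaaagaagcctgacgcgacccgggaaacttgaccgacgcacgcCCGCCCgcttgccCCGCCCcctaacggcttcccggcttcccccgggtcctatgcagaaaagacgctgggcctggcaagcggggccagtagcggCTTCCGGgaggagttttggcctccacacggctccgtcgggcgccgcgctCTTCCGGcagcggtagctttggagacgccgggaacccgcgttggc
ERCC4 (chr16:13919904-13920153, plus strand): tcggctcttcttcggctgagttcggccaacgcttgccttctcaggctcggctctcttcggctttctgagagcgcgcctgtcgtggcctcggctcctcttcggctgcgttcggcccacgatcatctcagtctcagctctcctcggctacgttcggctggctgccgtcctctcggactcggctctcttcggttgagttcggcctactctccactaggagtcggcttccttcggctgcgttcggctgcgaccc
FANCE (chr6:35452088-35452337, plus strand): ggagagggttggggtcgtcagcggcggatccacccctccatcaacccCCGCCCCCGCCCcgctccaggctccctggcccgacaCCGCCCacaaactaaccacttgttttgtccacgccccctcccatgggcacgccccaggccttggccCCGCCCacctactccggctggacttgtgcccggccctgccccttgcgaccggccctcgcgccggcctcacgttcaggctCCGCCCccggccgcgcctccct
XRCC1 (chr19:43575528-43575777, minus strand): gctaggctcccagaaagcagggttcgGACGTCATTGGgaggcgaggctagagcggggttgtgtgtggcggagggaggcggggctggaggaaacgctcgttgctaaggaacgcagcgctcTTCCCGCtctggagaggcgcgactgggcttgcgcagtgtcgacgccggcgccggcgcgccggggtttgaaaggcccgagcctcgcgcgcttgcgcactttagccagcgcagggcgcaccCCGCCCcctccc
Both sets held GC boxes, at 3 in FANCG, 2 in XPA and 5 in FANCE among the genes that fell, and at 2 in ATR and 1 in XRCC1 among those that rose. ERCC4 had no match to any of the words in this window. ATR had 2 ETS-type words, FANCG and XRCC1 had 1 E2F-type word each, and XRCC1 also had 1 CCAAT box overlapping its 1 CRE-type word. Taking the first listed start of each gene, 38 of the 42 tested repair genes had an entry. A GC box was found in 68.4% of these 38 stretches and in 42.3% of all 27305 stretches of the same length, an E2F-type word in 34.2% and 11%, an ETS-type word in 21.1% and 8.82%, a CCAAT box in 42.1% and 33%, and a CRE-type word in 5.26% and 3.29%. E2F-type words stood before 5 of 15 genes that rose and 3 of 12 that fell. The 27305 stretches were not limited to the 13634 tested genes, while the 38 all belong to genes that passed the signal filter. The shares are therefore of unlike sets, and whether they are particular to repair genes was not tested. A match of letters is a description of the sequence and not evidence of a bound factor.

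Homologous recombination copies the lost sequence from a sister chromatid. BRCA1, which guides broken ends into this route, read 186.2, 237.4 and 213.4 on the parental arrays and 297.3, 259.0 and 282.3 on the clone-labelled arrays. Every clone-labelled value lay above every parental value, and BRCA1 rose by 0.38 on the log2 scale (SE 0.11, adjusted p = 0.0136). Its call was lost without parental array 1 (adjusted p = 0.0513) and without clone-labelled array 1 (0.0525), the range over 15 alternatives being 0.00586 to 0.0525. BARD1, the partner of BRCA1 in a ubiquitin ligase, read 565.3, 517.3 and 527.8 on the parental arrays and 380.0, 384.7 and 389.0 on the others. It fell by 0.46 (SE 0.09, adjusted p = 0.00112), and its other probe sets fell too, by 0.55 and 1.31. RAD51C, a recombination protein, stood at 578 ± 24.7 in the parental samples and 793 ± 34.5 (SD, n = 3) in the clone-labelled samples, a rise of 0.45 (adjusted p = 0.00168) that its second probe set shared. A dimmer BRCA1 probe set did not pass, at 22.3 ± 1.99 and 24.8 ± 5.35 (0.08, adjusted p = 0.559). On their brightest probe sets BRCA1 and BARD1, whose proteins form a pair, changed in opposite directions.

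RAD54L, a motor protein that helps strand exchange, fell from 183 ± 30.3 to 137 ± 7.37 (log2 change -0.37, adjusted p = 0.0222). XRCC3, another recombination protein, went from 83.8 ± 15.6 to 62.7 ± 7.14 with overlapping groups (-0.33, adjusted p = 0.0493). The RAD54L call was lost without parental array 1, clone-labelled array 2 or clone-labelled array 3 (adjusted p up to 0.0724, range over 16 alternatives 0.00954 to 0.0724). That of XRCC3 was lost under 7 of 15 alternatives, among them the replicate block (adjusted p = 0.0638) and leaving out array 1 or 3 of either group (0.104 to 0.153). Over all 15 alternatives the adjusted p of XRCC3 ran from 0.0088 to 0.153. PALB2, which links BRCA1 to BRCA2, did not pass at 111 ± 16.8 and 137 ± 10.2 (95% confidence interval of the change 0.01 to 0.53). RAD52, an annealing protein, did not pass either at 248 ± 55.1 and 307 ± 13 (interval 0.00048 to 0.63). Without parental array 1 both passed, PALB2 at 0.37 and RAD52 at 0.48. RAD52 also passed with the replicate block (adjusted p = 0.043) and with a trended, robust prior (0.0414), the range over 16 alternatives being 0.00369 to 0.831. Its other tested probe sets were dim and did not pass (-0.30, -0.0070 and 0.087), and the mean of its probe sets was at 0.024 (adjusted p = 0.831). PALB2 also passed with a pseudocount of 64 (0.0482) and in the fit of gene means (0.0453), the range over 16 alternatives being 0.0209 to 0.218. The recombination proteins RAD51D (interval -0.37 to 0.06) and XRCC2 (-0.61 to 0.06) did not pass, although XRCC2 fell without clone-labelled array 3 (-0.41).

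Break sensing and checkpoint signalling held the largest rise. ATR, the kinase that answers stalled replication forks, read 348.5, 330.7 and 376.6 on the parental arrays and 837.5, 742.7 and 805.9 on the clone-labelled arrays. The groups lay far apart, and ATR rose by 1.14 (SE 0.09, adjusted p = 5.76e-06), 2.26 times the parental mean. Its second tested probe set rose by 1.04, from 180 ± 12.3 to 387 ± 24.0. CHEK1, the kinase that acts downstream of ATR, moved the other way. It read 584.1, 582.3 and 618.9 on the parental arrays and 423.3, 441.0 and 452.4 on the clone-labelled arrays, a fall of 0.43 (SE 0.09, adjusted p = 0.00188). CHEK2, the kinase downstream of ATM, read 323.4, 324.5 and 221.3 on the parental arrays and 452.1, 532.4 and 400.2 on the others. It rose by 0.65 (SE 0.16, adjusted p = 0.00569) with no overlap. So of these checkpoint kinases ATR, ATM and CHEK2 rose and CHEK1 fell.

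ATM, the kinase that answers broken ends, read 280.4, 262.9 and 278.1 on the parental arrays and 367.6, 358.9 and 315.6 on the clone-labelled arrays. Its rise was 0.32 (SE 0.09, adjusted p = 0.0138), and the call was lost without clone-labelled array 1 (0.0583) and with the mean of its probe sets (0.067, range over 16 alternatives 0.00387 to 0.067). In the complex of MRE11, RAD50 and NBN, which binds broken ends and activates ATM, MRE11 read 421.7, 368.7 and 340.2 against 262.6, 268.5 and 252.8. It fell by 0.50 (SE 0.10, adjusted p = 0.00199, range over 16 alternatives 0.000396 to 0.0888). With probe set types prone to cross-hybridise left out, a different, dim probe set stood for MRE11, at 15.3 ± 5.27 and 9.3 ± 2.59. That probe set did not pass (-0.30, adjusted p = 0.0888). RAD50 fell from 170 ± 4.94 to 128 ± 12.6 (-0.37, adjusted p = 0.00789) on its brightest probe set. Of its other probe sets 1 fell by 0.59 and 1 did not pass, at 143 ± 8.65 and 146 ± 2.73 (0.03). NBN did not pass at 1138 ± 140 and 1078 ± 37.7 (-0.07, interval -0.31 to 0.17).

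**Figure D3:**
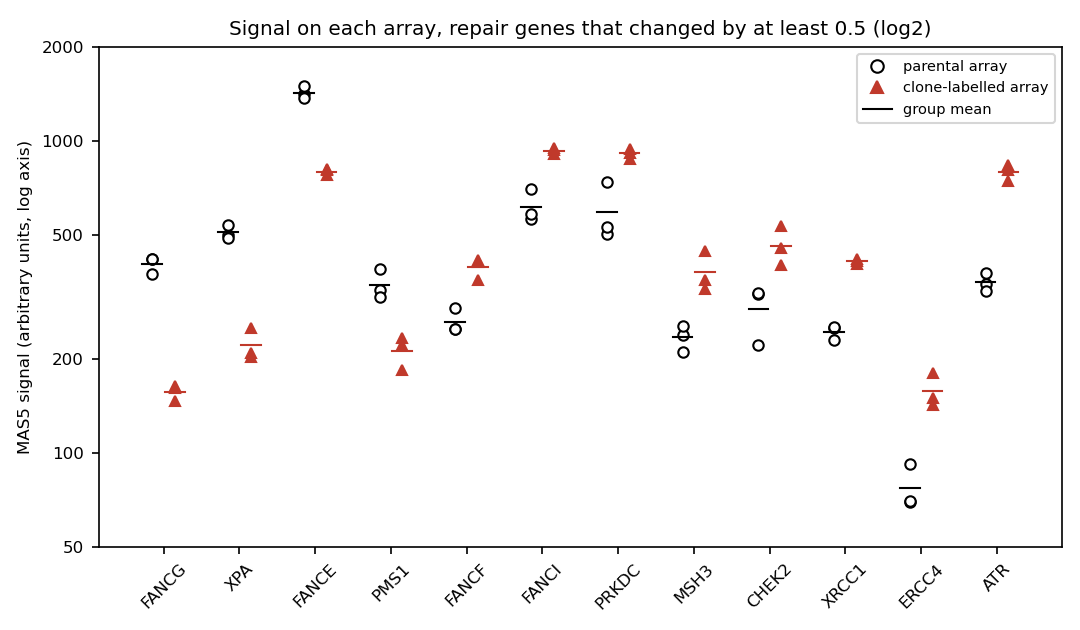
MAS5 signal (vertical log axis, arbitrary units) on each array for the 12 repair genes called with a change of at least 0.5 on the log2 scale, ordered from the largest fall to the largest rise. Open circles are the 3 parental arrays, red triangles the 3 clone-labelled arrays and lines the group means, and in each of the 12 genes the groups do not overlap.

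The Fanconi anaemia pathway held the largest fall and changed in both directions. In its core complex, which puts ubiquitin on FANCI and its partner at a crosslink, FANCG read 417.8, 373.6 and 417.2 on the parental arrays and 161.4, 146.1 and 163.2 on the clone-labelled arrays. FANCG fell by 1.28 (SE 0.09, adjusted p = 2.50e-06), the parental mean being 2.57 times the clone-labelled mean. FANCE, a core subunit that contacts the substrate, read 1413.6, 1497.0 and 1373.7 against 777.6, 804.3 and 810.2. That was a fall of 0.83 (SE 0.09, adjusted p = 2.68e-05). FANCF, an adaptor of the same complex, rose instead, from 248.7, 290.5 and 249.8 to 413.9, 408.1 and 359.1. Its change was 0.56 (SE 0.10, adjusted p = 0.00112), and its dimmer probe set rose by 0.35. FANCC, a further core subunit, did not pass at 84.8 ± 7.58 and 72.0 ± 10.5 (interval -0.45 to 0.05). The subunits of this complex thus did not move together.

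FANCL, the ubiquitin ligase of the core complex, rose from 551 ± 19.8 to 706 ± 2.75 (0.35, adjusted p = 0.00534). FANCI, a substrate of the ligase, read 700.6, 562.8 and 584.1 on the parental arrays and 945.9, 909.1 and 931.5 on the clone-labelled arrays. It rose by 0.59 (SE 0.10, adjusted p = 0.000861) without overlap, and of its other probe sets 1 rose by 0.64 and 1 did not pass. No Fanconi call was lost in any alternative.

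In mismatch repair, MSH3, which with its partner recognises insertion and deletion loops, read 210.6, 237.7 and 255.7 on the parental arrays and 356.6, 335.3 and 443.4 on the clone-labelled arrays. It rose by 0.65 (SE 0.12, adjusted p = 0.00136), and a second probe set rose by 0.34. Both carry an annotation suffix that marks possible cross-hybridisation, and the remaining probe set was dim and did not pass (0.02, adjusted p = 0.878, range over 16 alternatives 0.000174 to 0.878). MSH6, which recognises base mismatches, did not pass on its brightest probe set at 1723 ± 241 and 1591 ± 97.3 (-0.11, interval -0.37 to 0.15). Its other tested probe set fell by 0.44 (adjusted p = 0.00232), and the mean of both passed at -0.28 (adjusted p = 0.0186, range over 16 alternatives 0.0186 to 0.971). PMS1, a MutL homologue, read 388.8, 333.4 and 315.0 against 221.3, 232.8 and 183.6, a fall of 0.66 (SE 0.12, adjusted p = 0.000919) that another of its probe sets contradicts, as given below.

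Nucleotide excision was called for all 6 genes. XPA, which checks the damaged site before incision, read 499.9, 489.5 and 538.5 on the parental arrays and 250.3, 208.7 and 202.9 on the clone-labelled arrays. XPA fell by 1.15 (SE 0.10, adjusted p = 1.01e-05). Of the nuclease formed by ERCC4 and ERCC1, which cuts on the 5′ side of the lesion, ERCC4 rose and ERCC1 fell. ERCC4 read 69.6, 92.1 and 69.8 against 142.0, 179.7 and 150.1, a rise of 0.90 (SE 0.13, adjusted p = 0.000199). ERCC1 went from 1307 ± 7.62 to 1040.2 ± 21.6 (-0.33, adjusted p = 0.00698) on its brightest probe set, and its other probe sets did not pass at 0.14 and 0.13. As the mean of its probe sets ERCC1 was at -0.018 (adjusted p = 0.818, range over 16 alternatives 0.000489 to 0.818).

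ERCC5, the nuclease that cuts on the 3′ side, rose from 443 ± 17.4 to 626 ± 68.1 (0.48, adjusted p = 0.00284). The helicases of the transcription factor TFIIH, which open the helix around the lesion, split. ERCC3 rose from 429.6 ± 45.7 to 578 ± 44.4 (0.42, adjusted p = 0.00802). ERCC2 fell from 399.5 ± 35.2 to 302 ± 11.5 (-0.38, adjusted p = 0.00661), as did its second probe set (-0.47). Each of these genes had non-overlapping groups.

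In base excision, XRCC1, the scaffold that gathers nick-repair enzymes, was the one gene with a change of at least 0.5. It read 251.1, 229.3 and 252.2 on the parental arrays and 413.2, 402.5 and 418.1 on the clone-labelled arrays, a rise of 0.72 (SE 0.09, adjusted p = 7.57e-05). OGG1, the glycosylase for oxidised guanine, rose from 368 ± 26.6 to 448 ± 8.11 (0.28, adjusted p = 0.0241). That call was lost when any of 4 arrays was left out, namely array 1 or 3 of either group (adjusted p up to 0.079, range over 15 alternatives 0.00573 to 0.079). A second OGG1 probe set did not pass, at 103 ± 18.8 and 122 ± 22.9 (0.22, adjusted p = 0.25). PARP1, which senses nicks and signals to XRCC1, read 595.6, 486.5 and 433.7 on the parental arrays and 532.3, 433.6 and 469.9 on the others. The groups overlapped, and its change was -0.07 with a 95% confidence interval of -0.36 to 0.23. The endonuclease APEX1 (interval -0.37 to 0.09), the glycosylase MUTYH (-0.09 to 0.50) and the replication-linked ligase LIG1 (-0.23 to 0.31) did not pass, while MUTYH passed without parental array 1 (0.34, adjusted p = 0.035, range over 15 alternatives 0.035 to 0.47). A change larger than those bounds is not covered by the intervals, and none shows that the groups are alike.

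All 4 listed end-joining genes rose on their brightest probe sets, of which the calls of XRCC5 and LIG4 changed with the settings given beside them. PRKDC, the large kinase that binds broken ends with the Ku proteins, read 502.7, 530.3 and 740.7 on the parental arrays and 943.0, 875.9 and 914.6 on the clone-labelled arrays. Parental array 3 was the highest of its group but lay below all clone-labelled arrays, and PRKDC rose by 0.63 (SE 0.14, adjusted p = 0.00341). The Ku subunit XRCC6 read 2137.1, 2232.4 and 2223.2 against 2939.9, 2796.1 and 3313.4, a rise of 0.45 (adjusted p = 0.00256). XRCC5, the other Ku subunit, went from 1795 ± 226 to 2287 ± 191 (0.35, adjusted p = 0.0258). A second bright probe set of XRCC5 rose by 0.29 (adjusted p = 0.0333). The XRCC5 call was lost under 6 of 16 alternatives, among them leaving out parental array 1 or 2 or clone-labelled array 1 or 3 (adjusted p 0.00422 to 0.422 over the alternatives). With suffixes of possible cross-hybridisation excluded, a dim probe set stood for XRCC5, at 5.13 ± 1.29 and 6.67 ± 1.85 (0.10). LIG4, the ligase that closes the break, rose from 140 ± 10.8 to 187 ± 11.9 (0.38, adjusted p = 0.00706), but its dimmer probe set did not pass (-0.05) and the mean of both was at 0.16 (adjusted p = 0.0513, range over 16 alternatives 0.00263 to 0.0513).

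MGMT, which removes alkyl groups from guanine in a single step, was dim in both groups. It read 10.6, 6.3 and 6.5 on the parental arrays and 0.5, 0.3 and 0.6 on the clone-labelled arrays, where array medians were 10.4 to 12.1. The clone-labelled values lay below the highest bacterial control on every array (2.7 to 4.9), so the fall is at least 2.15-fold against that level. In a limma fit without the filter MGMT was lower (adjusted p = 0.00185).

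Probe sets of the same gene did not always tell the same story. Several probe sets were tested for 24 repair genes, and in 4 of these (16.7%) calls ran in both directions, against 6.72% of 7244 such genes overall. In 5 all probe sets were called the same way, in 12 some were called in 1 direction, and in 3 none was called. PMS1 was the widest case. Its brightest probe set fell by 0.66, while another rose by 1.08 (adjusted p = 4.92e-05), from 24.8, 25.5 and 29.0 to 82.5, 58.6 and 81.3, so the direction for PMS1 is not settled. CHEK1 fell on 3 probe sets and rose on a dim one, from 37.3, 45.1 and 47.7 to 53.5, 60.4 and 66.4 (0.36, adjusted p = 0.0158). Where along the transcripts these probes lie was not determined, and isoforms, introns and cross-hybridising RNA could not be told apart.

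LIG3, the ligase that works with XRCC1, did not pass on its brightest probe set, which read 1170.5, 1175.9 and 1231.9 on the parental arrays and 1052.4, 1109.3 and 1192.5 on the others. A pair of other bright probe sets fell by 0.56 and 0.64, and a dim one rose from 18.7, 28.4 and 23.3 to 29.4, 33.7 and 43.1 (0.38, adjusted p = 0.0284). ATM rose on a second probe set by 0.52 (adjusted p = 0.000651) and fell on a dim one, from 14.1, 12.6 and 12.1 to 8.3, 6.3 and 6.6 (-0.33, adjusted p = 0.00929). NBN rose on a pair of its less bright probe sets, by 0.53 and 0.38. Among genes with several tested probe sets, ATR, BARD1, RAD51C, FANCF and ERCC2 were the 5 called the same way on every one. FANCG, XPA, FANCE, ERCC4 and XRCC1, named above for their large changes, had 1 tested probe set each. Their changes could not be compared between probe sets.

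**Figure D4:**
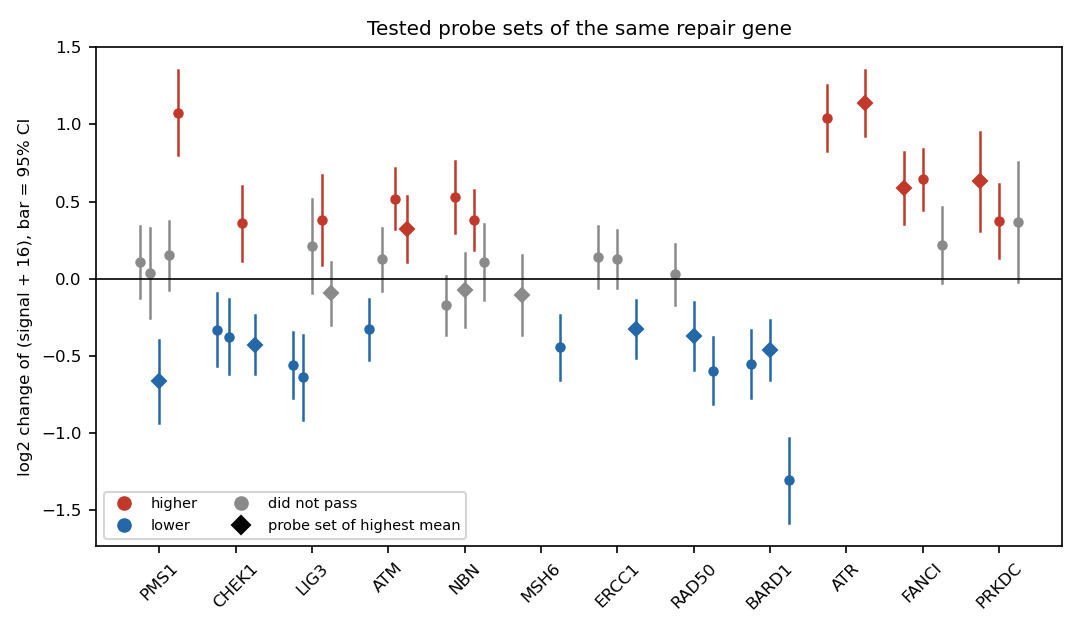
Change of each tested probe set of 12 repair genes, as the log2 change of (signal + 16) between clone-labelled and parental arrays (vertical axis) with its 95% confidence interval. Diamonds mark the probe set of highest mean, red and blue mark probe sets called higher and lower, and PMS1, CHEK1, LIG3 and ATM have both colours.

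A wider list of 118 repair genes outside the 47, grouped by the same routes, had 110 members tested, of which 34 rose, 39 fell and 37 did not pass (66.4% called, against 67.1% of all genes). Their median change was 0.04. In recombination 8 rose and 7 fell of 23, and POLQ, the polymerase of an alternative end-joining route, rose from 101 ± 5.26 to 221 ± 15.9, while the nuclease DNA2 fell from 143 ± 12.3 to 64.7 ± 15. In checkpoint signalling 5 rose and 8 fell of 19. TOPBP1, the activator of ATR, read 446.4, 453.0 and 462.7 on the parental arrays and 950.5, 852.2 and 899.5 on the clone-labelled arrays, a rise of 0.96 (adjusted p = 1.07e-05). RNF8, a ubiquitin ligase at breaks, fell from 493 ± 44.7 to 191 ± 32.5.

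Among 17 genes around the Fanconi pathway and lesion bypass 6 rose and 4 fell, led by the bypass polymerase POLI, which rose from 142 ± 8.36 to 344 ± 8.06, and FAAP20, a partner of the core complex, from 53.8 ± 4.65 to 137 ± 15.1. Of 11 further mismatch repair genes, namely MLH3 and genes of the clamp, its loading and resynthesis, 2 rose and 6 fell. The clamp loader RFC1 fell from 655 ± 12.4 to 302 ± 6.90 and the polymerase subunit POLD3 from 685 ± 19.2 to 420 ± 18.7. Of 16 further nucleotide excision genes 2 rose and 5 fell. ERCC8, of the branch that follows stalled transcription, fell from 132 ± 11.9 to 39.4 ± 3.35 (-1.42), and the TFIIH kinase assembly factor MNAT1 from 489 ± 72.5 to 213 ± 14.5 (-1.14).

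Of 17 further base excision genes 7 rose and 7 fell, and the glycosylases SMUG1 and NTHL1 rose, from 141 ± 9.56 to 343 ± 13.6 and from 86.8 ± 21.2 to 175 ± 13.2. Glycosylases as a class split. MBD4 (0.84), MPG (0.80) and NEIL2 (0.32) also rose, while TDG (-0.83), UNG (-0.75) and NEIL3 (-0.31) fell, all named after their values were seen. The 5 further end-joining genes split, with 2 higher and 2 lower. XRCC4, the partner of LIG4, fell from 333 ± 18.3 to 215 ± 5.57, and PAXX fell from 235 ± 7.90 to 154 ± 17.6. The rises were in the polymerase POLM (0.61, from 49.7 ± 7.07 to 84.1 ± 10.8) and the nuclease DCLRE1C (0.56, from 369 ± 13.9 to 552 ± 18.5), both named after their values were seen. Both enzymes of oxidative alkyl removal rose. ALKBH2 read 136.8, 125.8 and 76.3 on the parental arrays and 411.7, 518.2 and 450.9 on the clone-labelled arrays, a rise of 1.91 (SE 0.18, adjusted p = 1.45e-05), while ALKBH3 rose from 562 ± 67.3 to 688 ± 47.1. These named genes had adjusted p-values of at most 0.0449 (limma).

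Proliferation genes, many of which share S-phase expression with repair genes, were called in 18 of 24 cases (75%), against 67.1% of all genes. Of the 24, 4 rose and 14 fell. The proliferation marker MKI67 read 517.4, 509.2 and 508.4 on the parental arrays and 271.8, 228.4 and 229.3 on the clone-labelled arrays (-1.03, adjusted p = 1.35e-05). TOP2A, a topoisomerase of mitotic cells, fell from 2489 ± 189 to 1318 ± 68.2 (-0.91). The replication clamp PCNA did not pass at 1318 ± 164 and 1496 ± 209, and the helicase subunit MCM2 rose from 382 ± 29.4 to 566 ± 36.3 (0.55).

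Many repair genes share a promoter region with a gene that runs the other way. By RefSeq starts, 17 of the 47 had such a neighbour with its start within 1000 bases on the opposite strand, 18 pairs in all, and both genes were tested in 12. Both members were called in 7 of the 12 pairs, 4 in the same direction and 3 in opposite directions, and in 5 pairs 1 was called. MRE11 fell together with ANKRD49 (from 321 ± 22.5 to 188 ± 10.7) and XRCC3 with ZFYVE21 (from 557 ± 34.9 to 295 ± 7.77). BRCA1 rose with NBR2 (from 350.3 ± 34.3 to 457 ± 40.7), while NBR1, also next to it, did not pass. XRCC6 rose with DESI1, which went from 671.5 ± 11.6 to 1542 ± 47.2.

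Other pairs parted. ATM rose and NPAT, a histone gene coactivator, fell from 644 ± 56.1 to 514 ± 16.6 (-0.31, adjusted p = 0.0173). LIG4 rose and ABHD13 fell (-0.39), and PMS1 on its brightest probe set fell while ORMDL1 rose (0.42). APEX1 did not pass, and OSGEP, a tRNA-modifying enzyme that starts 414 bases away, fell from 362 ± 21.0 to 142 ± 6.66 (-1.26, adjusted p = 2.08e-06). PALB2 did not pass, and DCTN5, 156 bases away, rose from 404 ± 22.1 to 732 ± 71.1 (0.83). With 67.1% of all genes called, a pair in which both are called is common, and these pairs are given as values.

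**Figure D5:**
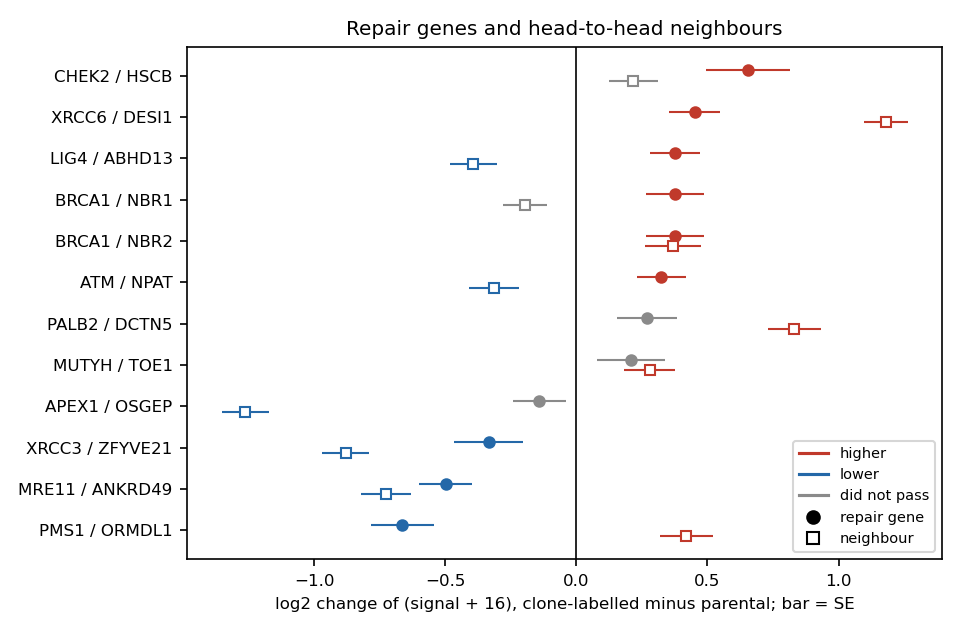
Log2 change of (signal + 16), clone-labelled minus parental, with its standard error (horizontal axis), for the repair gene of each of 12 pairs (filled circles) and the neighbour starting within 1000 bases on the opposite strand (open squares). Red is higher, blue lower and grey did not pass, and 4 pairs show the same called direction while 3 show opposite ones.

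Wider neighbourhoods were read for the 6 genes of largest change, as the 5 tested genes on either side in the order of the gene table, where 34.1% of all genes rose and 33.1% fell. Around ERCC4 8 of 10 neighbours rose and none fell (median change 0.82, range 0.0063 to 1.98), beside a rise of 0.90 in ERCC4. Around ATR 8 rose and 2 fell (median 0.85). FANCE, which fell by 0.83, had 7 neighbours lower and 1 higher (median -0.43). Around FANCG, by contrast, 7 of 10 did not pass (median -0.11, against -1.28 for FANCG), and around XPA 5 rose and 2 fell (median 0.18, against -1.15 for XPA). XRCC1 had 4 higher and 1 lower (median 0.28).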

How the data were processed

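Per the labels' protocols, 40 ng of total RNA per sample was amplified and biotin-labelled using NuGEN Ovation reagents. The deposited values are MAS5 signal intensities on a linear scale, 1 array per sample; the authors computed them with MAS5, as the submitters' processing notes state. Version, scaling target and genome build: not given in the sources used here. Array values show equal means on every array (150.015 to 150.017) after trimming 2% at each end. MAS5 subtracts mismatch signal, so ratios of dim probe sets are unstable, and no detection calls were used.

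Symbols came from GEO's platform annotation, checked through Entrez identifiers against RefSeq (GRCh38.p14): of 54613 non-control probe sets 41091 named 1 gene, and 41037 of them matched. The scale was log2(signal + 16), on which changes of dim genes are understated. Probe sets at or above the 40th percentile of mean signal (5.87) were tested, 32784 in all. Groups were compared with lmFit and eBayes of limma 3.58.1 (R 4.3.3) over all 6 arrays, without covariates, at a Benjamini-Hochberg adjusted p of 0.05. A group lies at the bacterial control level where no array exceeds the brightest of 27 unspiked bacterial control probe sets (2.5 to 4.9). Genes described in full were those called with a change of at least 0.5, those with probe sets called in both directions and the central enzyme of each route, and from each further list of repair genes the 2 largest called changes among genes with groups apart and, in the higher group, a mean at or above the median tested probe set. The repair genes, the further lists and the tests were chosen with earlier results of these data known. Tested on data simulated from this comparison (32784 probe sets), the fit called 87% of simulated log2 changes of 1 and 100% of those of 2. Only 100 probe sets were changed at each size, where 62.6% were called in the data. Recovery at so large a share, or of changes below 1, where most repair genes lay, was not measured. No 2 arrays of a group had the same value in over 2.15% of probe sets. Plots used matplotlib 3.10.9 (Python 3.11.15). Alternatives tried were other pseudocounts, filters, scalings, priors, probe set rules, a replicate block and each array left out.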

Additional observations from a re-analysis of the deposited data

How the results depend on the processing

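Counts of repair genes kept within 1.5 times their values under every alternative tried: 17 to 19 genes higher and 11 to 12 lower over other pseudocounts, filters, scalings and priors and with the mean of each gene's probe sets, and 14 to 18 higher and 10 to 12 lower with each array left out in turn. Probe sets counted higher ran from 24 to 30 and lower from 19 to 22 with each array left out. With suffixes of possible cross-hybridisation excluded, 50 of the 88 probe sets were tested and 15 were higher, against 31, which follows in part from the smaller number tested; 33 genes were then tested, 13 of them higher and 9 lower. Of 42 genes, 22 kept direction and side of the threshold under every alternative that gave them a value (15 or 16 each, since 9 genes had none with those suffixes excluded), 19 of them called. Reversed values were 1.08 for PMS1 and 0.11 for NBN without those probe sets, 0.14 for PMS1, 0.15 for NBN and 0.0023 for FANCC as the mean of probe sets, and, with each array left out, the ranges -0.14 to 0.024 for NBN and -0.17 to 0.0047 for MSH6 (positive without parental array 3), -0.17 to 0.052 for PARP1 (positive without parental array 1) and -0.058 to 0.15 for LIG1 (negative without parental array 2). The cause was not tested. With the replicate block, 19 repair genes were higher and 11 lower (32 and 22 probe sets): XRCC3 lost its call (adjusted p = 0.0638) and RAD52 gained one (0.043). Deviations of same-numbered arrays correlated at 0.070, 0.074 and 0.19, and not every array correlated best with its own number, so the numbers were not taken to pair the samples.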
